A study of Rattus norvegicus with 15 samples.

Results

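A set of 40 genes that act in DNA replication and cell division was followed through all 15 libraries of the series. The genes were chosen by symbol, and 39 of the 40 were found among the 17055 genes of the count files; Bub1b was not listed. Islet cells came from 10-day-old (1.5-week-old) Sprague-Dawley rats, were dispersed, and were transfected with a mimic of miR-17-5p, a short RNA duplex made to deliver that mature miRNA, or with a control miRNA mimic. For the mRNA libraries, oligo(dT)-selected poly(A) RNA was sequenced from 3 control and 5 miR-17-5p samples. For the RISC libraries, RNA was recovered after immunoprecipitation with a monoclonal antibody to Ago2, the protein that holds a miRNA and its bound transcripts in the RNA-induced silencing complex (RISC), and was sequenced from 3 control and 4 miR-17-5p samples. Every sample carries the same source label, and no group was left untransfected. The labels call the libraries biological replicates without saying which animals or cultures each came from, so the p-values measure the spread between these libraries.

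Before a cell divides, MCM2 to MCM7 are loaded onto replication origins by CDC6 and CDT1, geminin blocks a repeat of this loading, and PCNA, ribonucleotide reductase and thymidylate synthase serve the replication fork. Cyclin E with CDK2 starts S phase and cyclins A and B with CDK1 drive mitosis, where Polo-like and Aurora kinases, kinesins and condensing proteins separate the chromosomes and APC/C with CDC20 and UBE2C ends the stage. Beta cells of the newborn divide and most of them leave the cycle as they mature. S phase genes are typically activated by E2F factors, which are released from RB proteins, and many mitosis genes are held down in resting cells through a CHR element (cell cycle genes homology region) and raised through CCAAT boxes bound by NF-Y.

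The mimic carries the miRNA whose sequence is shown first here, beside the other rat miRNAs with the same seed (bases 2 to 8 in capitals), from RefSeq annotation of GRCr8.
rno-miR-17-5p: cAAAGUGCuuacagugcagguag
rno-miR-20a-5p: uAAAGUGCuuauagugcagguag
rno-miR-20b-5p: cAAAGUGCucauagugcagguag
rno-miR-93-5p: cAAAGUGCuguucgugcagguag
rno-miR-106b-5p: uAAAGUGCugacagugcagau
The 5 sequences share the seed AAAGUGC and differ at the first base or after the seed. The genes of miR-93 and miR-106b lie on chromosome 12, at chr12:22156894-22156916 and chr12:22157103-22157123 on the minus strand, inside the span of the member Mcm7, a subunit of the replicative helicase.

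Promoter letters were read for the members that have an entry in the RefSeq GRCr8 promoter table, 29 of the 39. In the 250 bases before the annotated start, on both strands, the CHR letters TTTGAA or TTTAAA were found in 17 of the 29 (58.6%), against 25.4% of 33469 promoters in the table. The E2F letters TTTCCCGC, TTTCGCGC, TTTGCCGC or TTTGGCGC were found in 6 of the 29 (20.7%), against 1.73% of all promoters. CCAAT stood in 21 of the 29 (72.4%), against 34.0% of all promoters, and TATAAA in 1, Nusap1, against 12.9%. The letters differed by role only in part. All 7 spindle, chromosome and cytokinesis genes with an entry (Mki67, Top2a, Cenpf, Kif11, Kif20a, Nusap1 and Prc1) had both CHR and CCAAT letters and none had E2F letters. Of the 8 licensing and replication fork genes, 4 (Mcm2, Mcm5, Mcm6 and Mcm7) had E2F letters, 6 had CCAAT and 1, Mcm2, had CHR letters. Of the 5 mitotic kinase and checkpoint genes, 4 had CHR letters, 2 had CCAAT and 0 had E2F letters. Of the 6 cyclins and their kinases, 4 had CHR letters, 4 had CCAAT and 1 had E2F letters. Ccne1, cyclin E1 of S phase, had CHR letters and neither of the others, while Cdk1 had all 3 kinds. Of the 2 nucleotide genes, 0 had CHR letters, 1 had E2F letters and 1 had CCAAT. For members 1 entry per gene was read, while the shares of all promoters are over every entry, not limited to genes of the count files. A match is a description of letters and not of a bound site.

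**Figure D1:**
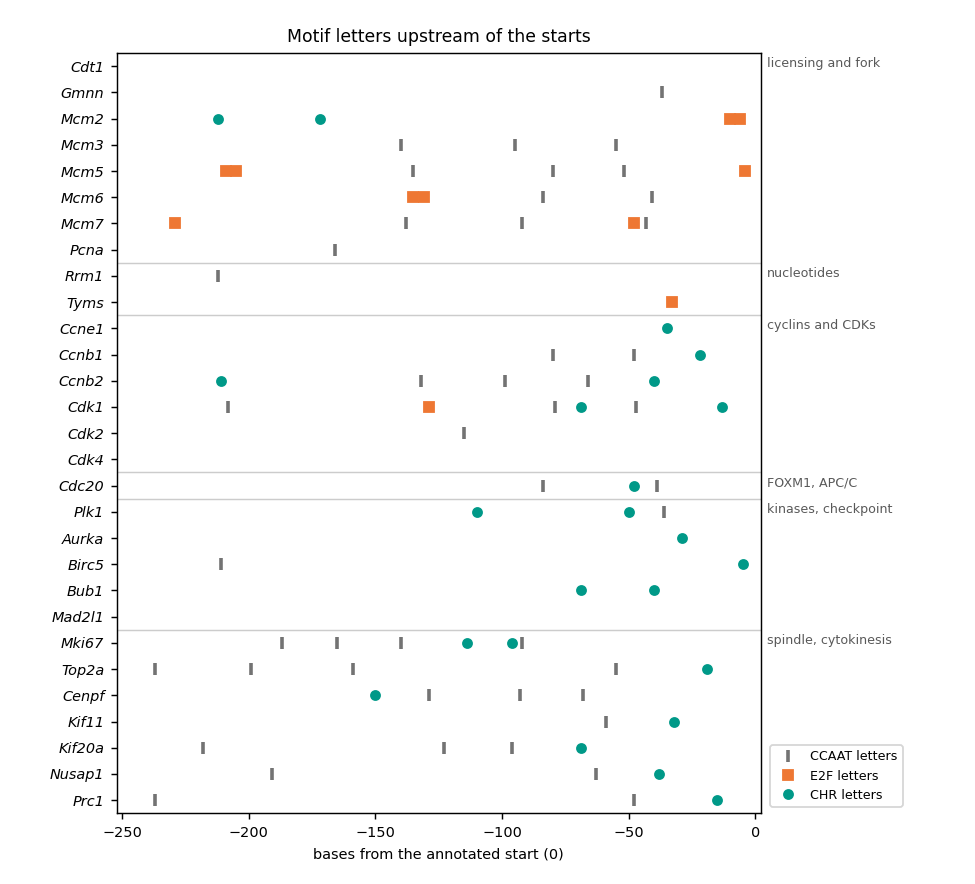
Each row is 1 of the 29 members with a promoter entry, ordered by role, and the x axis is the distance in bases from the annotated start (0). Bars mark CCAAT, squares E2F letters and circles CHR letters on either strand. Circles are in 17 of the 29, all 7 spindle and cytokinesis genes among them, and squares in Mcm2, Mcm5, Mcm6, Mcm7, Tyms and Cdk1.

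Below are the 250 bases upstream of 4 members whose poly(A) levels were higher in every miR-17-5p library than in every control library and that have an entry. They are given 5′ to 3′ on the gene's strand, in GRCr8, with CHR, E2F and CCAAT letters (or their reverse complements) in capitals. Mcm3 lies at chr9:30733747-30733996 on the minus strand, Mcm6 at chr13:42404353-42404602 on the minus strand, Cdk1 at chr20:19265043-19265292 on the plus strand and Ccnb1 at chr2:33655226-33655475 on the minus strand.
Mcm3: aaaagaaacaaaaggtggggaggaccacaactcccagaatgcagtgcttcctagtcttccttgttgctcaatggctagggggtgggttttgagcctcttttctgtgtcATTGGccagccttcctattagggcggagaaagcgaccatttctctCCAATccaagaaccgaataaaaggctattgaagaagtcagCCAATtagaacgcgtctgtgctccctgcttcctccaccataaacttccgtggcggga
Mcm6: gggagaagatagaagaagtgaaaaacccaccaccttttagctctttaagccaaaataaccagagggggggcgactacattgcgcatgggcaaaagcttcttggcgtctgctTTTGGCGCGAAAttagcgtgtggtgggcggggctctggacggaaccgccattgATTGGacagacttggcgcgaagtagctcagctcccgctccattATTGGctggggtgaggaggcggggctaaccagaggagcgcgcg
Cdk1: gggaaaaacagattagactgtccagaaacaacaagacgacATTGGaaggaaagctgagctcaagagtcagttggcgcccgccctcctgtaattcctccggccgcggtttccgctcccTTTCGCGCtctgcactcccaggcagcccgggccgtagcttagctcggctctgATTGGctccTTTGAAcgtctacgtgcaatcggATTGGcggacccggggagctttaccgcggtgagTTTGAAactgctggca
Ccnb1: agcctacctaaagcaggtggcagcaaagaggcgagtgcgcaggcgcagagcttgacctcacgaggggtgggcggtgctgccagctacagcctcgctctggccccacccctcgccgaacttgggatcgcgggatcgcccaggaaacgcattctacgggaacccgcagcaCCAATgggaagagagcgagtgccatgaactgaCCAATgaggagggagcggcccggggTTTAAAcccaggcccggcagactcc
Mcm3 had 3 CCAAT matches and none of the other letters. Mcm6 had a pair of E2F matches on opposite strands that overlap each other, with 2 CCAAT matches between them and the start. Cdk1 had 2 CHR matches, 1 E2F match and 3 CCAAT matches. Ccnb1 had 1 CHR match, centred 22 bases before the start, and 2 CCAAT matches.

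Counts on genes summed to 3379456 to 21056240 per mRNA library and 4185123 to 13420403 per RISC library. Levels are given as CPM (counts scaled to a fixed library size) on a single scale over the 15 libraries; CPM is not divided by gene length, so levels are not ranked between genes. The 2 insulin genes, which mark beta cells, took 26.2 to 41.8% of the counts of an mRNA library and 0.947 to 1.97% of a RISC library. Control RISC libraries stood apart from each other: 3 counts or fewer, including 0, were found for many genes in each of them, and they had 5589 to 7424 genes with a count, against 9040 to 10753 in miR-17-5p RISC libraries. Markers of other cells moved with the mimic. The summed level of 17 stellate and fibroblast genes was 12418 to 21845 CPM in control and 23607 to 51477 CPM in miR-17-5p mRNA libraries, and 11 of the 16 tested were called higher (2 to 12 when 1 library was left out). The 14 macrophage and leukocyte genes summed to 91.9 to 388 CPM against 228 to 534 CPM, all 14 had values above 0 in log2 change and none was called; of the 10 beta cell genes tested none was called, and all 10 had values below 0. Of the other markers, 2 of 12 endothelial, 1 of 6 duct and 2 of 3 red blood cell genes were called lower, and 0 of 6 acinar and 0 of 8 other islet hormone cell genes were called. With 1 library left out, 0 to 5 beta cell, 0 to 3 endothelial, 0 to 2 duct and 0 to 2 red blood cell genes were called lower, and 0 to 2 macrophage genes higher. In bulk RNA, fewer cells of a type and less RNA per cell cannot be told apart, and the part of these cell types in the results below was not tested.

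In poly(A) RNA, the question was whether levels of the replication and division genes differed after the miR-17-5p mimic. Estimates leaned towards higher levels, but no single gene passed the test. Of the 39 members, 35 had a log2 fold change above 0, against 50.7% of the 11077 genes tested. The members' median was 0.39, against 0.01 over all genes tested. By edgeR's quasi-likelihood test at a Benjamini-Hochberg adjusted p under 0.05, 0 of the 39 were called, while 3.87% of all genes were (3.11% higher and 0.767% lower). At an unadjusted p under 0.05 there were 14 of the 39 members, against 19.0% of all genes. DESeq2's Wald test called 3 members (Ccne2, Mcm6 and Mcm3), where it called 887 of the 11077 genes. With limma-voom no member was called, and 1017 of all genes were. The libraries of the groups did not overlap for 8 members, all higher after the mimic (Mcm3, Mcm6, Rrm2, Ccne2, Ccnb1, Cdk1, Ube2c and Tpx2), where 8.42% of all tested genes did not overlap in that direction; no member was lower without overlap, against 6.64% of all genes.

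Among the licensing and fork genes, Mcm6, a helicase subunit, had the smallest p of the set. Its level was 22.7, 23.9 and 18.9 CPM in control replicates 1, 2 and 3 and 32.7, 48.2, 42.2, 32.7 and 31.1 CPM in miR-17-5p replicates 1, 2, 4, 5 and 6; further values follow the same order of libraries. All 5 treated libraries lay above the 3 controls, and the log2 fold change was 0.77 ± 0.20 (SE, n = 3 and 5, edgeR adjusted p = 0.0538). Mcm3, another subunit, read 20.0, 12.8 and 13.2 CPM against 28.3, 51.5, 28.4, 21.5 and 21.3 CPM. Its groups did not overlap either, but the highest control and the lowest treated library were close, and the log2 fold change was 0.97 ± 0.31 (adjusted p = 0.104). Cdc6, which loads the helicase, had a value of 0.76 ± 0.34 (adjusted p = 0.242) with overlapping groups. The estimates for Mcm7 (-0.10 ± 0.19), Pcna (0.03 ± 0.17) and Mcm4 (0.14 ± 0.17) lay within 1 SE of 0, and 9 of the 10 genes of the group had values above 0. Cdt1 was listed at 0 in control replicate 3 and at 12.3 and 8.70 CPM in the other two controls.

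Of the nucleotide genes, Rrm2, the regulated subunit of ribonucleotide reductase, read 32.4, 34.8 and 35.2 CPM in control and 39.9, 62.3, 38.4, 49.4 and 45.3 CPM after miR-17-5p. The groups did not overlap, with a log2 fold change of 0.47 ± 0.19 (adjusted p = 0.191). Tyms, thymidylate synthase, read 11.9, 6.38 and 12.1 CPM against 13.9, 16.9, 7.74, 14.4 and 7.81 CPM, which overlapped (0.27 ± 0.36, adjusted p = 0.737).

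Among the cyclins and their kinases, Ccne2, cyclin E2, had the largest fold change of the set. It read 1.09, 0.435 and 1.42 CPM in control and 4.35, 5.42, 9.12, 3.27 and 3.61 CPM after miR-17-5p. The groups did not overlap, but the control values rest on 10, 3 and 4 counts. The log2 fold change was 2.44 ± 0.68 (adjusted p = 0.0651, and 0.00445 by DESeq2). Cdk1, the mitotic kinase, read 24.2, 19.0 and 17.8 CPM against 29.8, 44.3, 25.0, 29.6 and 27.3 CPM. Its lowest treated library stood only just above the highest control (0.61 ± 0.23, adjusted p = 0.159). Ccnb1, cyclin B1, read 11.8, 7.98 and 5.34 CPM against 15.1, 21.4, 13.1, 14.2 and 15.1 CPM, without overlap (0.88 ± 0.30, adjusted p = 0.135). Ccnb2, cyclin B2, had a value of -0.14 ± 0.41. Cdk4, the D cyclin partner of G1, had a small spread, at 138, 118 and 142 CPM in control and 145, 137, 150, 135 and 148 CPM in treated libraries (0.11 ± 0.12, adjusted p = 0.661).

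In the mitotic groups, Ube2c, the APC/C's ubiquitin-conjugating enzyme, read 11.9, 11.5 and 9.97 CPM in control and 13.7, 43.3, 15, 17.5 and 18.5 CPM in miR-17-5p libraries. Replicate 2 of the treated group was far above the other four, which were close to the controls (0.95 ± 0.37, adjusted p = 0.182). Tpx2, a spindle protein that activates Aurora A, read 12.9, 12.6 and 6.41 CPM against 15.4, 33.2, 18.8, 21.0 and 17.8 CPM, without overlap (0.96 ± 0.31, adjusted p = 0.115). Aurkb, Aurora B, had a larger estimate with overlapping groups (1.10 ± 0.40, adjusted p = 0.151). Of the 9 spindle, chromosome and cytokinesis genes, 8 had values above 0, Mki67 at 0.31 ± 0.24 and Top2a at 0.55 ± 0.24 among them, and Racgap1, a cytokinesis GTPase regulator, had the lowest value of the 39 (-0.37 ± 0.22, adjusted p = 0.398).

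miR-17-5p replicate 2 held the highest level of all 8 mRNA libraries for 24 of the 39 members. How often that library was the highest over all genes was not counted. In its group, replicate 2 also had the highest sums of acinar (142 against 18.2 to 59.0 CPM) and endothelial markers (385 against 194 to 244 CPM). So it did for duct (1137 against 745 to 787 CPM) and red blood cell markers (14.2 against 3.46 to 9.12 CPM). Stellate and macrophage sums were highest in replicate 4, at 51477 and 534 CPM against 40790 and 283 CPM in replicate 2. Beta cell and other islet hormone sums were highest in replicate 1. The members' summed level was 776 ± 39.1 CPM (SD, n = 3, 736 to 814) in control and 999 ± 132 CPM (n = 5) in treated libraries; replicate 2 reached 1234 CPM and the other four lay between 927 and 950 CPM, so each of the 5 was above the controls. Without replicate 2 the median log2 fold change of the members was 0.35, with 34 of 39 above 0 and 0 called. The summed level went with that of the stellate genes between the groups (above), and its relation to cell composition was not tested.

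**Figure D2:**
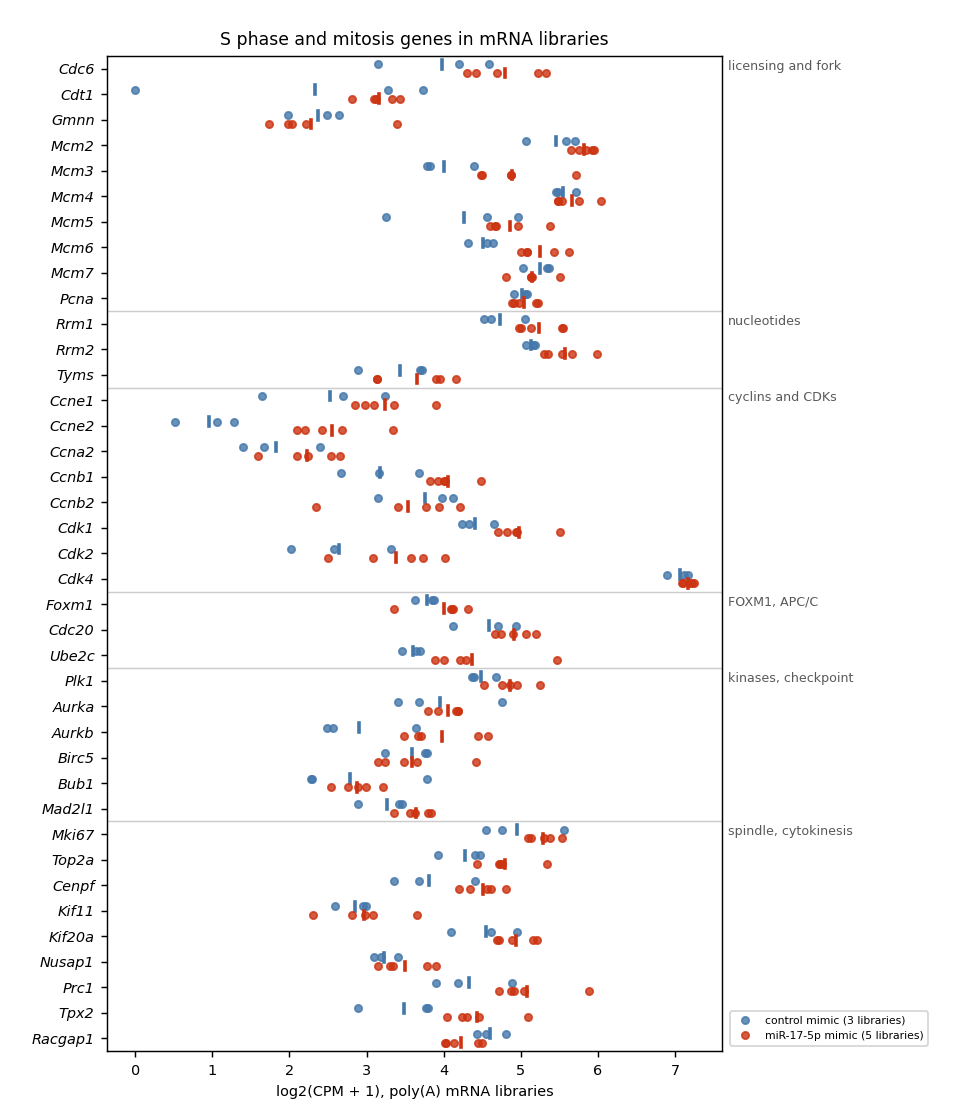
Levels of the 39 members in the 8 poly(A) mRNA libraries, as log2(CPM + 1) on the x axis, with 1 point per library, a vertical bar at the group mean, and rows ordered by role. Treated points lie to the right of all control points for 8 members, and the right-most treated point is often that of replicate 2.

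In Ago2-bound RNA, the first difference between the groups was in which members had counts at all. Above 3 counts were 24, 26 and 9 of the 39 members in control replicates 1, 2 and 3, and 38, 37, 38 and 38 in miR-17-5p replicates 2, 4, 5 and 6. Of the 11077 genes tested in mRNA, 58.3, 59.8 and 43.9% were above 3 counts in the same control libraries and 88.7, 77.6, 91.0 and 84.2% in the treated ones, so the control libraries held fewer genes in general. The mRNA libraries had 38 or 39 members above 3 counts. Only 8 members passed 3 counts in each of the 3 control RISC libraries (Mcm2, Mcm3, Mcm4, Ccne2, Cdk4, Foxm1, Plk1 and Mki67), while 5 were at 3 counts or fewer in each (Cdc6, Gmnn, Tyms, Cdk1 and Cdk2). In the treated RISC libraries 37 members passed in all 4; Ccna2, cyclin A2, had no count in replicate 4 and Gmnn, geminin, had none in any of the 7 RISC libraries.

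The control RISC libraries also differed in which members were abundant. Mki67, the Ki-67 gene, read 214, 10.6 and 24.7 CPM in control replicates 1, 2 and 3, and 81.1, 76.0, 84.6 and 38.2 CPM in miR-17-5p replicates 2, 4, 5 and 6. Control replicate 1 was above and the other two below every treated library. Top2a, topoisomerase II alpha, read 100, 58.0 and 0 CPM against 73.5, 68.2, 95.3 and 109 CPM. Mki67 made up 22.0% of the members' summed level in control replicate 1, Mcm4 15.3% in replicate 2 and Ccne2 16.7% in replicate 3, while the leading member took 8.92 to 9.96% in the treated libraries. The median coefficient of variation over the members was 167% in control RISC and 37.5% in treated RISC libraries, against 96.9 and 45.6% over all genes, and 27.5 and 23.7% for the members in control and treated mRNA libraries.

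**Figure D3:**
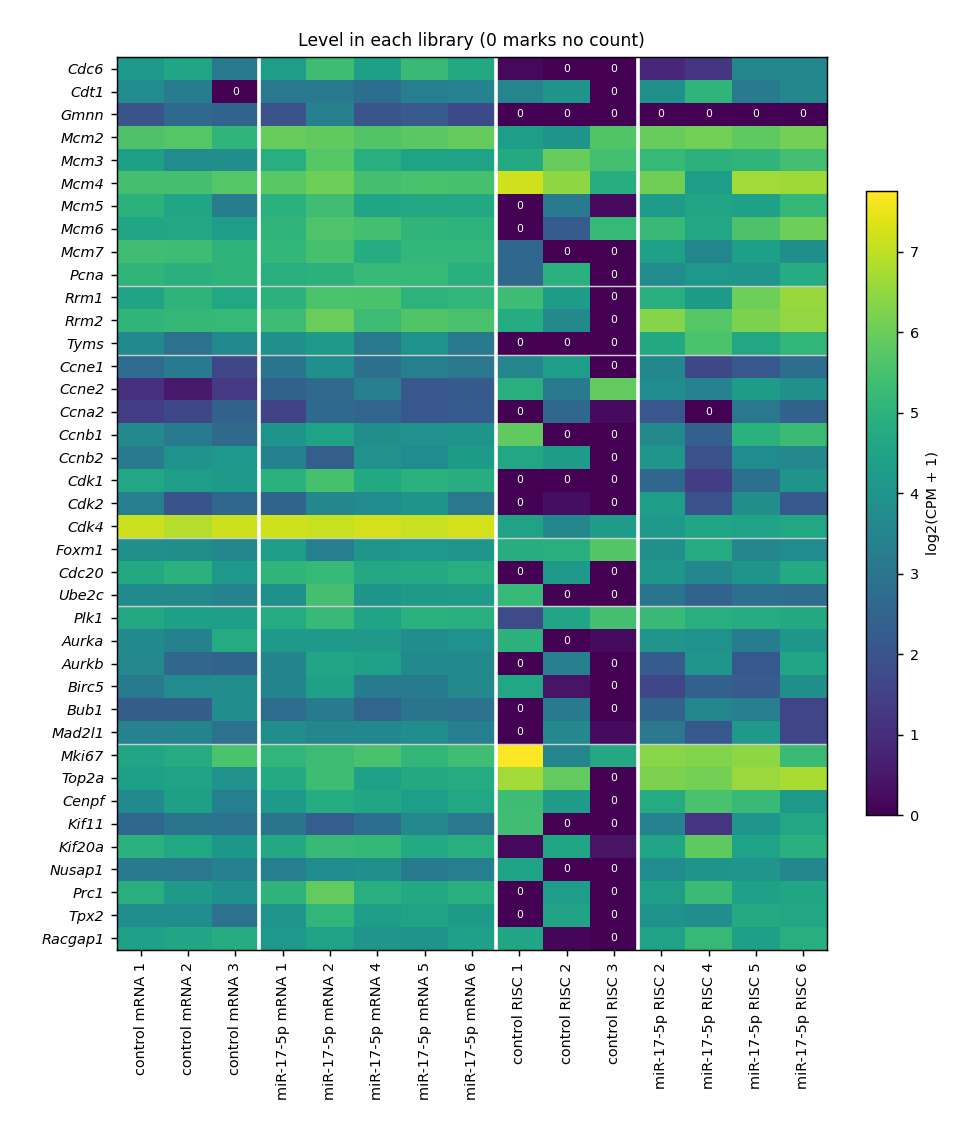
Level of each member (rows, ordered by role) in each of the 15 libraries (columns), coloured by log2(CPM + 1), with 0 written where a library had no count. Zeros fill most of control RISC replicate 3 and the whole RISC part of the Gmnn row; the 8 mRNA libraries hold a single zero, Cdt1 in control replicate 3.

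Between miR-17-5p and control RISC libraries, 0 of the 38 members tested were called by edgeR (Gmnn could not be tested), where 0.371% of the 9443 genes were (0.339% higher and 0.0318% lower); 4 members had an unadjusted p under 0.05, against 20.1% of all genes. Those 4, Tyms, Cdk1, Cdc6 and Cdk2, were also the ones DESeq2 called, where it called 1305 of the 9443 genes. With limma-voom no member was called, and 19 of all genes were. The median log2 fold change was 0.96 over the members and 0.27 over all genes. Values above 0 were found for 28 of 38 members, against 59.0% of all genes. Groups did not overlap for 9 members that were higher (Cdc6, Mcm2, Mcm5, Mcm7, Rrm2, Tyms, Cdk1, Cdk2 and Prc1), against 17.6% of all genes, and for 1 that was lower, Foxm1, against 3.36%. Marker genes moved between the same libraries: the stellate sum was 4737 to 10268 CPM in control and 24824 to 27953 CPM in treated RISC (7 of 16 called higher, 0 to 10 with a library left out), and the macrophage sum 0.159 to 129 CPM and 252 to 351 CPM (1 of 11 called higher, 0 to 5 with a library left out).

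Tyms had no count in any control RISC library and read 25.3, 46.0, 23.6 and 34.2 CPM in the treated ones. The treated mean was 99.9 times a floor of 3 counts per control library (edgeR adjusted p = 0.0725). The floor covers counting error only, so this is not a minimum for the change. Ccnb1, for example, had 1018, 0 and 0 counts in the same control libraries. Cdk1 likewise had no count in the 3 controls and read 5.04, 1.67, 6.17 and 15.1 CPM, with a mean 21.7 times the floor (adjusted p = 0.0725). Cdk2, the S phase kinase, read 0, 0.216 and 0 CPM against 19.0, 2.91, 13.2 and 3.5 CPM (adjusted p = 0.129), and Cdc6 read 0.111, 0 and 0 CPM against 0.851, 1.32, 10.7 and 10.6 CPM (adjusted p = 0.114). The 4 genes were thus at 0 or at 2 counts in the controls and counted in each treated library. The treated levels of Cdk1, Cdk2 and Cdc6 varied several-fold, and those of Tyms less (coefficient of variation 31.7%). Foxm1, the transcription factor of mitosis genes, read 27.2, 28.5 and 49.8 CPM in control and 13.9, 26.1, 10.8 and 12.3 CPM in treated libraries (-1.14 ± 0.96, adjusted p = 0.755). Calls here hung on single libraries. Without control replicate 2, 9 members were called higher (Cdk2, Cdc20, Aurkb, Bub1, Mcm5, Tyms, Kif20a, Prc1 and Tpx2), and without control replicate 3 Tyms alone was. Over all genes the same omissions gave 1225 and 122 calls in place of 35, and leaving out miR-17-5p replicate 4 gave 548, while leaving out replicate 2, 5 or 6 gave 0.

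Within control cells, Ago2-bound RNA was compared with poly(A) RNA to find members over- or under-represented in RISC. The 2 kinds of library were also prepared from differently recovered RNA, with poly(A) selection stated for mRNA only, and the ribosomal precursor Rn45s took 3.13 to 12.8% of mRNA and 23.6 to 42.6% of RISC counts; its part in the values was not tested. edgeR called 7 of the 39, 1 higher and 6 lower in RISC, where 28.2% of the 10170 genes were called (5.96% higher and 22.3% lower). With library totals as the only scaling, 32.9% of all calls were higher in RISC, against 21.1% here. The members' median was -0.64 and that of all genes -0.69. Library totals without scaling factors moved these to 0.02 and -0.12, and DESeq2's size factors to -0.83 and -0.87, so the values are relative to the typical gene.

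Ccne2 rose in RISC, from 1.09, 0.435 and 1.42 CPM in mRNA (10, 3 and 4 counts) to 27.8, 8.42 and 58.4 CPM in RISC libraries. The log2 fold change was 5.00 ± 1.30 (adjusted p = 0.0342). The RISC libraries were all above the mRNA libraries, and spread widely. Cdk4 fell from 138, 118 and 142 CPM to 20.9, 10.7 and 18.0 CPM (-3.0 ± 0.39, adjusted p = 0.00819). Its 3 RISC libraries lay far under the mRNA libraries and were each above 3 counts, unlike those of the other five that fell. Cdk1 and Tyms were at 0 in the 3 RISC libraries (adjusted p = 0.0134 and 0.0102). Their mRNA means were 62.9 and 31.4 times a floor of 3 counts per RISC library, which covers counting error only. Gmnn, at 2.96, 5.22 and 4.63 CPM in mRNA, had no RISC count and an mRNA mean 13.2 times that floor (adjusted p = 0.00819). Cdc6 (adjusted p = 0.0151) and Cdk2 (adjusted p = 0.0325) fell too. Without the mRNA and RISC libraries numbered 1, 0 of the members and 0 of all genes were called. Without those numbered 2, 11 members fell and none rose, where 2827 of 10103 genes fell and 287 rose. Without those numbered 3, 4 members fell, where 2621 of 10645 genes did. Ccne2 was called in none of these 3 fits.

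Within miR-17-5p cells, edgeR called 11 of the 39 members between RISC and mRNA, 5 higher and 6 lower, where 43.5% of the 10871 genes were called (21.7% higher and 21.8% lower). The members' median log2 fold change was 0.19, and that of all genes -0.15. The members that rose were Top2a and Mki67 of the chromosome proteins, Tyms and Rrm2 of the nucleotide enzymes, and Ccne2. Those that fell were Cdc6, Gmnn and Mcm7 of licensing and the fork, Cdk1 and Cdk4 of the kinases, and Ube2c. None of the 6 mitotic kinase and checkpoint genes passed (smallest adjusted p = 0.299).

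Top2a rose from 25.6, 39.3, 20.6, 25.2 and 26.0 CPM in mRNA to 73.5, 68.2, 95.3 and 109 CPM in RISC libraries (log2 fold change 1.83 ± 0.23, n = 5 and 4, edgeR adjusted p = 6.4e-05). The groups were far apart. Mki67 rose from 32.9, 38.3, 45.3, 34.0 and 40.5 CPM to 81.1, 76.0, 84.6 and 38.2 CPM (1.05 ± 0.25, adjusted p = 0.00508). RISC replicate 6 lay among the mRNA values, so these groups overlap. Tyms rose by 1.56 ± 0.33 (adjusted p = 0.00272), its RISC libraries at 23.6 to 46.0 CPM standing above mRNA libraries at 7.74 to 16.9 CPM. Rrm2 rose by 0.81 ± 0.21 (adjusted p = 0.00906), and Ccne2 by 1.58 ± 0.51 (adjusted p = 0.0257), from 3.27 to 9.12 CPM in mRNA to 9.77 to 18.2 CPM in RISC libraries.

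Cdk4 fell from 135 to 150 CPM in mRNA to 17, 22.4, 21.7 and 23.9 CPM in RISC libraries (-2.59 ± 0.16, adjusted p = 5.38e-07). Gmnn, at 2.33 to 9.48 CPM in mRNA, had no RISC count and an mRNA mean 14.8 times the floor of 3 counts (adjusted p = 0.00221). Cdk1 fell from 25.0 to 44.3 CPM in mRNA to 1.67 to 15.1 CPM (-2.01 ± 0.52, adjusted p = 0.00863). Ube2c fell from 13.7 to 43.3 CPM to 4.58 to 7.01 CPM (-1.69 ± 0.45, adjusted p = 0.00942). Mcm7, host of the miR-93 and miR-106b genes printed above, fell from 27.0 to 44.4 CPM to 10.8 to 20.8 CPM (-0.93 ± 0.29, adjusted p = 0.0211). Cdc6 fell by 2.08 on the log2 scale (SE 0.72, adjusted p = 0.0354). The other MCM subunits, Mcm2 to Mcm6, did not pass, with values from -0.09 ± 0.27 (Mcm5) to 0.69 ± 0.39 (Mcm4). Each fit that left out the libraries of 1 number (for number 1, an mRNA library only), and each other setting, called 9 to 13 of the members. Ccne2 and Cdc6 each lost their call in 4 of the 5 fits that left out a number, Cdk1 lost it without replicate 2, and Mcm7 and Rrm2 without replicate 6.

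**Figure D4:**
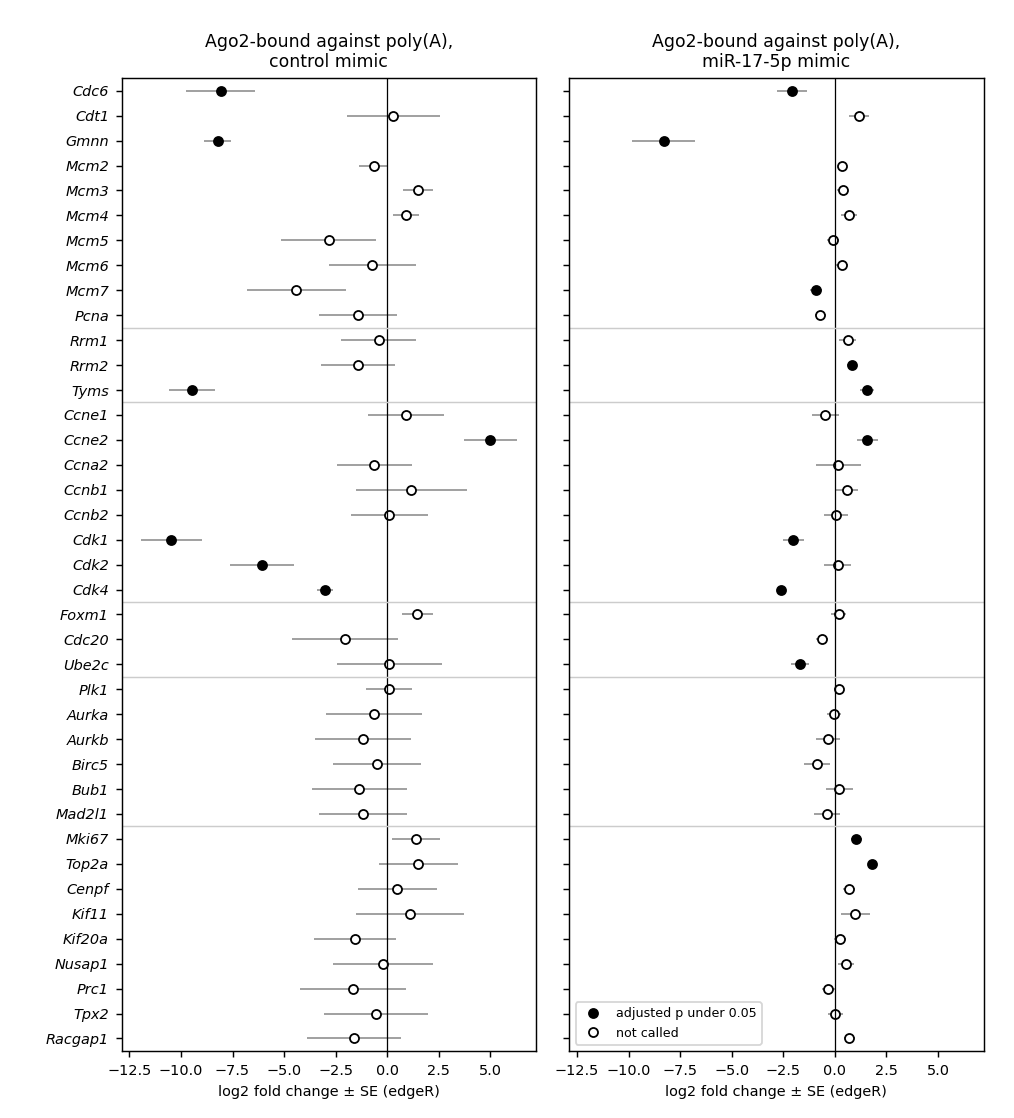
log2 fold change of Ago2-bound against poly(A) RNA for each member in control cells (left, 3 and 3 libraries) and in miR-17-5p cells (right, 4 and 5 libraries), with SE bars and filled points for an adjusted p under 0.05. Error bars are wider on the left for every member but Gmnn; Cdk4, Gmnn, Cdk1 and Cdc6 are filled and below 0 on both sides, Ccne2 is filled and above 0 on both, and Tyms is filled below 0 on the left and above 0 on the right (fitted values of Gmnn, and of Cdk1 and Tyms on the left, come from groups with no count).

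Whether the mimic changed Ago2-bound levels by another amount than poly(A) levels was tested as an interaction over the 15 libraries. The test shared a single spread over both library kinds, so its p-values may be too small for the more variable RISC libraries. edgeR's common coefficient of variation, as a fraction, was 0.871 here, 1.23 between the RISC groups and 0.305 between the mRNA groups. The SE for Tyms was 2.09 between the RISC groups alone, against 1.20 here. edgeR called 5 of 39 members, 4 higher and 1 lower, where 13.4% of the 11418 genes were called (13% higher and 0.394% lower). Tyms (10.97 ± 1.20 on the log2 scale, adjusted p = 0.000109), Cdk1 (8.41 ± 1.33, adjusted p = 0.000837), Cdk2 (6.05 ± 1.54, adjusted p = 0.0166) and Cdc6 (5.74 ± 1.47, adjusted p = 0.0173) had a larger change in RISC than in mRNA. The sizes of these 4 values are fitted against control RISC libraries with no count (Tyms and Cdk1) or with 2 counts in a single library (Cdk2 and Cdc6), so they depend on the prior count and are not measured sizes. Ccne2 went the other way (-3.61 ± 1.08, adjusted p = 0.0377). Its treated mRNA libraries were all above the control ones, which held 10, 3 and 4 counts. Its RISC levels overlapped, at 27.8, 8.42 and 58.4 CPM in control and 12.5, 9.77, 18.2 and 13.9 CPM in treated libraries. The difference for Cdk4 was 0.25 ± 0.33 (adjusted p = 0.812). With limma-voom 0 members were called (smallest adjusted p = 0.411), and with a replicate block 0 (smallest adjusted p = 0.0814). Without the libraries of control replicate 1, 13 members were called, where 1962 of 11589 genes were. Without those of control replicate 2, 13 members were called, where 2452 of 11666 genes were. Without miR-17-5p replicate 5 or 6, 3 members were called, where 1155 and 1284 of all genes were. Ccne2 lost its call in 7 of the 8 fits that left out a number.

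**Figure D5:**
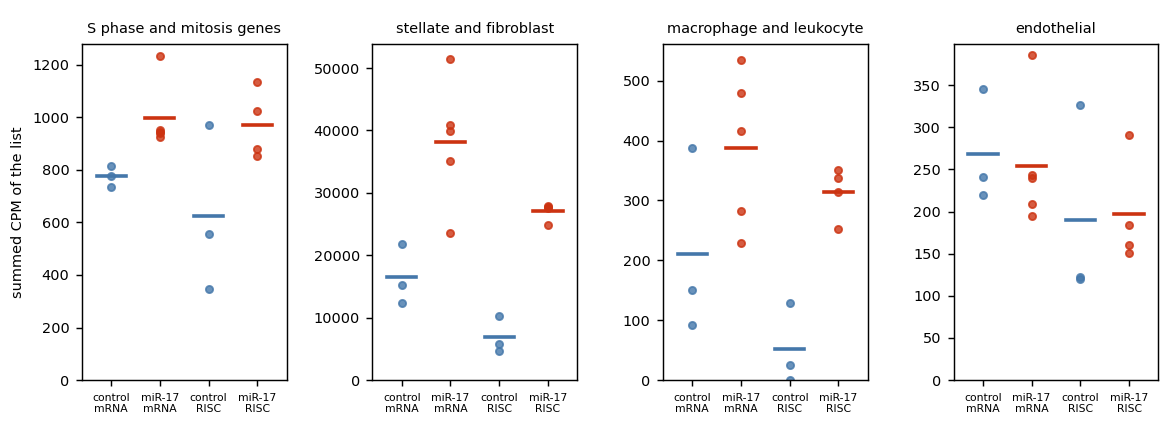
Summed CPM per library of the 39 members and of 3 marker lists (panels), with 1 point per library, a bar at the group mean and axes that start at 0. The members' sum is above the controls in all 5 treated mRNA libraries, as is that of the stellate and fibroblast genes, while the macrophage and endothelial sums overlap in mRNA.

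Other genes of the same processes were read from lists that hold none of the members. In poly(A) RNA, 0 of 40 further S phase genes were called (28 above 0, median 0.33), and 1 of 43 further mitosis genes rose, Tacc3, a spindle microtubule protein (1.15 ± 0.23, adjusted p = 0.0158; 35 above 0, median 0.43). Of 21 G1 cyclins, CDK inhibitors, RB and E2F genes, 1 fell, Btg2, an antiproliferative gene (-0.75 ± 0.17, adjusted p = 0.0270; 9 above 0, median -0.02), and of 11 quiescence and stress arrest genes 0 were called (4 above 0, median -0.18). Of all genes 50.7% were above 0 in poly(A) RNA. The Tacc3 list had 0 to 2 calls when a library was left out, and that of Btg2 0 or 1. Between the RISC groups 0 genes of the 4 lists were called, with medians of 1.70, 0.44, 0.46 and -0.45 in the same order. The median of all genes was 0.27, and many of the S phase and mitosis genes had no count in control RISC libraries (below).

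Between RISC and mRNA in control cells, 17 of 37 further S phase genes fell and none rose, Cdc45 of the replicative helicase among them (adjusted p = 0.00791), as did 15 of 40 further mitosis genes, among them the checkpoint kinase Ttk (adjusted p = 0.00814). Of the 42 S phase genes in the count files, 26, 23 and 36 had no count in control RISC replicates 1, 2 and 3. Of the 45 mitosis genes, 24, 20 and 35 had none. In control mRNA replicates 1, 2 and 3, 1, 1 and 2 S phase genes and 0, 1 and 5 mitosis genes had none. Such falls cannot be told apart from a lack of counts in sparse libraries. Of all genes 22.3% fell in this comparison, and with a number left out 0 to 18 of the S phase and 0 to 16 of the mitosis genes did, the 0 being without the libraries numbered 1, where no gene was called. Of the 11 arrest genes, 3 rose (Tob1, Foxo1 and Mdm2), where 5.96% of all genes rose, and 1 fell. With a number left out, 0 to 3 of the arrest genes rose. In miR-17-5p cells the S phase list had 5 genes that rose and 4 that fell of 40, and the mitosis list 7 and 4 of 42, where 21.7% of all genes rose and 21.8% fell. With a number left out, 1 to 3 S phase genes rose and 1 to 4 fell, so the 5 that rose were reached only with all libraries, and 7 to 9 mitosis genes rose and 3 to 7 fell. The G1 list had 10 that rose and none that fell of 21, led by Cdkn1b, the CDK inhibitor p27 (2.35 ± 0.17, adjusted p = 1.6e-06), and the arrest list 7 that rose, with Tob1 at 2.39 ± 0.17 (adjusted p = 1.42e-06), and 1 that fell, Gadd45g (-2.46 ± 0.19, adjusted p = 2.1e-06), of 11. With a number left out, 7 to 10 of the G1 list and 5 to 7 of the arrest list rose. Rbl1, an RB family protein, rose by 2.45 ± 0.42 (adjusted p = 0.000566). In the interaction test, 13 of 41 further S phase genes, 11 of 45 further mitosis genes, 4 of 22 G1 genes and 1 of 11 arrest genes were called, all with values above 0, where 13% of all genes were called in that direction. With a number left out the counts above 0 were 6 to 14, 9 to 14, 1 to 3 and 1 to 2, so the 4 of the G1 list were reached only with all libraries. In a control RISC library, 23 to 36 of the S phase, 20 to 35 of the mitosis and 7 to 10 of the 23 G1 genes had no count. Values fitted against such libraries depend on the prior count, as for Tyms and Cdk1. These numbers of calls therefore do not measure a larger miR-17-5p effect in RISC.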

How the data were processed

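Single-end libraries were not strand-specific, so reads of a gene and of one that overlaps it on the opposite strand could not be separated. Per the submitters' processing notes, TopHat2 2.0.10, Bowtie2, HTSeq, DESeq and edgeR were used, with the rn5 build; the step each served is not stated. The deposited values are whole-number counts per gene symbol and library. HTSeq's own rows were left out of totals: reads not uniquely aligned were 15 to 31.2% and ambiguous reads 0.151 to 0.454%, of the gene counts and these rows together.

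The counts were tested with edgeR 4.0.16 (R 4.3.3): filterByExpr, TMM factors, glmQLFit and glmQLFTest on the libraries of each comparison, over all genes, called at a Benjamini-Hochberg adjusted p under 0.05; SE is the log2 fold change over the root of F. The RISC against mRNA and interaction tests treat all libraries as separate and share a single spread over both library kinds. Alternatives were DESeq2 1.42.0, limma-voom 3.58.1, other size factors and filters, a replicate block, and leaving out each library or number. The script was tested on simulated data. Any member could be named. Per-library values were given for a choice of members, among them called ones, some with the smallest p in a role group and some called in another comparison. Aurkb and Rrm1, with unadjusted edgeR p of 0.0158 and 0.0283 in mRNA, were among those not shown. The members and lists were chosen with earlier results of these data known. A floor of 3 counts covers counting error only. Symbols of 39 members were found in the RefSeq GRCr8 gene table; rn5 coordinates were not used.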

Additional observations from a re-analysis of the deposited data

Results flagged for a closer look

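miR-17-5p mRNA replicate 2 stood far above the other 4 libraries of its group for 7 members and for their sum, by Dixon's test at the 95% level. There, Top2a read 39.3 CPM against 20.6 to 26.0 CPM in the others, Ccnb1 21.4 against 13.1 to 15.1 CPM, and Cdk1 44.3 against 25.0 to 29.8 CPM. Mcm3 read 51.5 against 21.3 to 28.4 CPM, Gmnn 9.48 against 2.33 to 3.65 CPM, Ube2c 43.3 against 13.7 to 18.5 CPM, and Prc1, which bundles spindle microtubules, 58.1 against 25.2 to 31.9 CPM. The members' sum was 1234 CPM against 927 to 950 CPM. These are 8 flags among 79 groups of values examined, all in a single library. By chance about 1 group in 20 is flagged, and members of a library are not independent. That library also had the highest acinar, endothelial, duct and red blood cell marker sums of its group.

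The miR-17-5p effect differed between RISC and mRNA libraries, by the interaction test, for Tyms (10.97 on the log2 scale), Cdk1 (8.41), Cdk2 (6.05), Cdc6 (5.74) and Ccne2 (-3.61). The first 4 sizes are fitted against control RISC libraries at 0 or 2 counts and depend on the prior count. The test shared a single spread over both library kinds, and limma-voom and the replicate block called 0 members. Mean RISC levels after the mimic were 99.9 times a floor of 3 counts per control library for Tyms and 21.7 times for Cdk1. The floor covers counting error only, so these are not minimum changes.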

How the results depend on the processing

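No named member that was called changed direction under any setting run. In mRNA the count of called members was 0 and became 1 with a mean of at least 50 counts (Mcm6) and 3 with DESeq2; leaving out a library gave 0 to 1, the 1 being Mcm6 without miR-17-5p replicate 1. Between RISC groups it was 0 and became 4 with DESeq2, and 0 to 9 with a library left out. In control cells it was 7 and became 3 with a mean of at least 50 counts, and 0 to 11 with a number left out. For the interaction it was 5, 0 with limma-voom, and 3 to 13 with a number left out. Causes of these shifts were not tested, apart from fewer genes being tested at the higher minimum.

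Numbers were taken from the titles; the descriptions number most mRNA libraries differently and give all RISC libraries the same number. Whether libraries with the same title number belong together is not stated. Correlations of deviations from group means were -0.0076 to 0.049 for same-numbered control mRNA and RISC libraries, -0.0132 to 0.041 for treated ones and -0.19 to -0.066 for control and treated mRNA. Differently numbered libraries gave -0.061 to 0.034, -0.043 to 0.074 and -0.1 to 0.171 in the same order. With so few libraries and the wide spread of RISC libraries, these values cannot settle whether the numbers pair them. With a replicate block, called members became 1 in control cells, 9 in miR-17-5p cells, 0 for the interaction and 0 in mRNA (0, 338, 3642 and 30 calls over all genes in mRNA, control cells, treated cells and interaction). No paired analysis was possible between RISC groups because they share only number 2.

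Over all genes in mRNA, 429 calls became 265 with library totals, 887 with DESeq2, 1017 with limma-voom and 85 to 816 with a library left out (fewer when control library 2 or 3, or treated library 4, 5 or 6, was dropped; more when treated library 1 was). Between RISC groups, 35 became 22, 1305, 19 and 0 to 1225. In control cells 2870 became 1254 at the higher minimum and 0 to 3114 with a number left out, and the interaction's 1533 became 0 with limma-voom and 1155 to 2452. Low depth limits Ccne2, Gmnn and Ccna2, and RISC values at 3 counts or fewer.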
